A study of Drosophila melanogaster with 6 samples.

Results

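CAP-D3 was called at 2035 sites that lay more than 3000 bp from every annotated gene, out of 22108 peaks in the deposited CAP-D3 list. These far peaks were peaks on chromosome arms 2L, 2R, 3L, 3R or X whose midpoint was over 3000 bp outside the nearest gene span of any kind, protein-coding or noncoding. The parts of the arms next to the centromere were left out on 2L from 22 Mb, on 3L from 22.9 Mb, on X from 22 Mb and on 3R below 4.2 Mb. The parts that remained held 21499 CAP-D3 peaks, of which the far peaks made up 9.47% (95% Wilson interval 9.08 to 9.86%, counting error only). The other 19464 peaks of the same parts comprised 17226 with their midpoint inside a gene and 2238 within 3000 bp of one, and they are the reference below. The list is longer than the set of binding sites that the paper counts at its stricter probability limit. It reaches down to a score (−log10 of the MACS2 probability) of 2.0, and 888 of the 2035 far peaks scored 10 or more.

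The paper studied how CAP-D3 affects vein development in the Drosophila wing, and in this part mapped its binding in a cultured Drosophila line. Chromatin was cut with micrococcal nuclease and precipitated with the CAP-D3 antibody YZ384 (dCAP-D3 ChIP, 2 samples) or with normal rabbit IgG (IgG ChIP, 2 samples), and 2 Input samples received no antibody. All 6 samples were untreated S2R+ cells according to the labels, which give the cell type as embryonic and the strain as Oregon R, whereas the methods name the line S2. The nuclease dose, the sequencing instrument and the number of separate experiments also differ between the labels and the methods, and each antibody has 1 deposited peak list, so no value below has a replicate error and no difference was tested between samples.

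CAP-D3 is a subunit of Condensin II, a ring-shaped complex built on the SMC2 and SMC4 ATPases that compacts chromosomes for division and also organizes interphase chromatin. The stretches between Drosophila genes hold enhancers and insulators, many of them for genes of transcription factors and signals that pattern the embryo and the imaginal discs. Near the centromeres such stretches hold mostly transposon remnants and other repeats, and some are piRNA clusters, which make the small RNAs that silence transposons in the germline.

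The far peaks were spaced along the long gaps between genes. Their distance from the nearest gene had a median of 6.20 kb (quartiles 4.33 and 10.1 kb) and reached 229 kb. Of the 2035 peaks, 1320 (64.9%) were over 5 kb, 517 (25.4%) over 10 kb, 121 (5.95%) over 20 kb and 12 over 50 kb from any gene. The nearest gene was protein-coding for 1371 peaks (67.4%) and a long noncoding RNA gene for 588 (28.9%), and it was a pseudogene for 34, a tRNA gene for 22, a miRNA gene for 16 and an antisense RNA gene for 4. It lay to the left of 973 peaks and to the right of 1062. Arm 3R held 686 far peaks, 3L 475, 2R 427, 2L 370 and X 77.

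The distance rule cut through a continuous range. The members nearest to the limit were MACS peak 39 on 2L between net and Zir (score 8.99), MACS peak 5966 on 2R between en and tou (score 9.04), both 3000.5 bp from a gene, and MACS peak 2898 on 2L between nAChRalpha5 and CG46301 (score 9.46), 3002 bp from one. The nearest peaks on the other side were MACS peak 8212 on 2R between CR44750 and Grx1t (score 8.83) at exactly 3000 bp, and MACS peak 12214 on 3L next to Tom (score 12.51) and MACS peak 18604 on 3R between CG7029 and CG7031 (score 17.32), both at 2998.5 bp. The scores on the 2 sides of the limit overlapped.

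CAP-D3 peaks were sparser far from genes than in the rest of the same parts of the arms, but far sequence was not empty. Far sequence made up 16.1 Mb, 13.4% of the total, and held 126 peaks per Mb (95% Poisson interval 121 to 132, counting error only), against 187 per Mb (185 to 190) in the remaining sequence. Within genes the density was 200 per Mb, and within 3000 bp outside genes it was 126 per Mb. The rule does not cut the centromere side of 2R, and the first 5.7 Mb there, a limit set after the data were seen, held 98 far peaks in 3.04 Mb of far sequence. That is 32.3 per Mb, against 42.4 per Mb in the remaining sequence of the same region. Without it the far density was 148 per Mb (141 to 155), against 128 per Mb (123 to 134) within 3000 bp outside genes and 191 per Mb in the whole of the rest.

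The density outside genes did not fall steadily with distance. Sequence more than 20 kb from any gene had 44.1 CAP-D3 peaks per Mb, sequence at 10 to 20 kb 123, at 5 to 10 kb 145, at 3 to 5 kb 154 and at 1 to 3 kb 147 per Mb. The first 1 kb outside genes held 110 per Mb, fewer than any band out to 20 kb, and gene spans held 200. With the centromere side of 2R left out, the 4 far bands held 75.9, 145, 155 and 159 per Mb in the same order. The density thus differed little between 3 and 20 kb. The value of 75.9 beyond 20 kb came from 80 peaks in 1.05 Mb, a band that includes very wide gaps with few peaks. Between Pld and lncRNA:CR46075, 245.8 kb held 5 far peaks, and the 206 kb counted beside lncRNA:flam held 0. No density was taken without such gaps, so a fall beyond 20 kb was not shown for gaps in general. The IgG peaks followed part of the same course. They numbered 18.2 per Mb beyond 20 kb, 29.3, 30.7 and 33.7 per Mb in the next 3 bands inwards, 27.7 at 1 to 3 kb, 19.7 in the first 1 kb and 32.5 within genes.

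**Figure D1:**
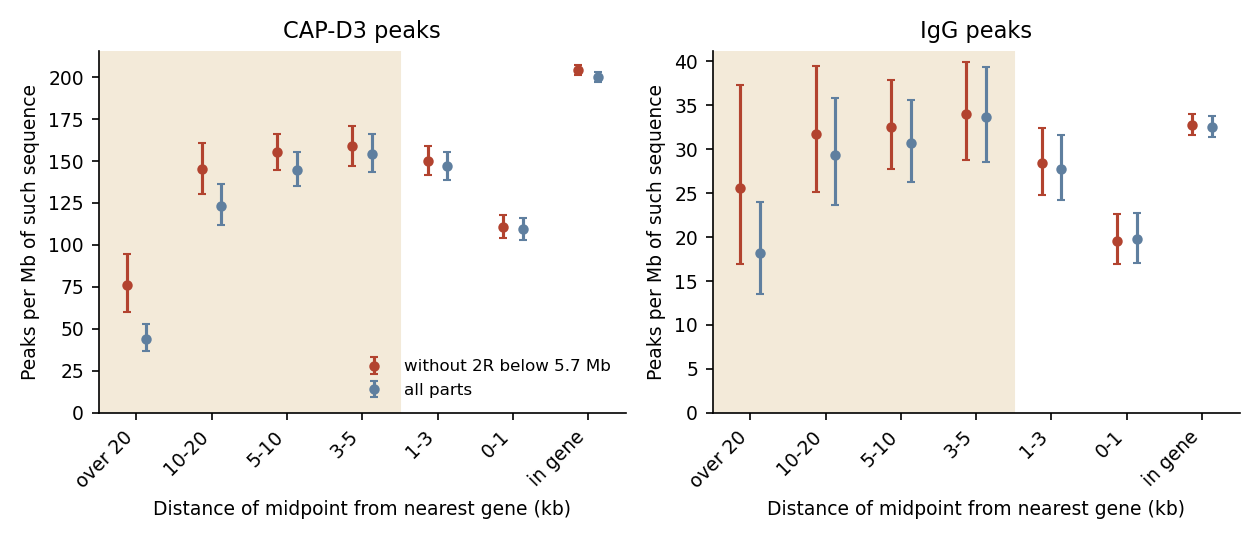
Peaks per Mb of sequence (y axis) by distance of the midpoint from the nearest gene (x axis, kb, farthest on the left), for CAP-D3 peaks (left panel) and IgG peaks (right panel). Points are densities and bars 95% Poisson intervals, red without the first 5.7 Mb of 2R and blue with it, and the shaded bands are those beyond 3 kb. CAP-D3 peaks numbered 44.1 per Mb beyond 20 kb, 154 per Mb at 3 to 5 kb and 200 per Mb within genes (blue).

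In relation to the control, the far sequence held fewer CAP-D3 peaks for each IgG peak. The IgG list held 470 far peaks among 3688 of the same parts (12.7%, 11.7 to 13.9%), out of 3915 deposited, a larger share than the 9.47% of the CAP-D3 list. The IgG density was 29.2 per Mb (26.6 to 31.9) in far sequence and 31.0 per Mb (29.9 to 32.1) in the rest, so these intervals overlapped where those of CAP-D3 did not. There were thus 4.33 CAP-D3 peaks for each IgG peak in far sequence, against 5.42 within 3000 bp of genes and 6.14 inside genes. Without the centromere side of 2R the ratio was 4.58 in far sequence, against 6.12 in the rest.

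The size of the difference varied by arm. On 3R the far density was 220 CAP-D3 peaks per Mb (204 to 237), against 246 (240 to 252) in the rest of the arm. The difference was wider on 3L, with 156 far peaks per Mb against 208, and on 2L, with 136 against 188. Arm 2R had 87.9 against 230 per Mb, and 181 against 258 per Mb without its first 5.7 Mb. The X chromosome was sparsely covered in both classes, with 32.4 far peaks per Mb (25.6 to 40.5) against 47.3 (44.3 to 50.4) in the rest. The IgG peaks went the other way on 3R, with 54.9 per Mb in far sequence (47.0 to 63.8) against 42.1 per Mb (39.6 to 44.8) in the rest of the arm, and on X, with 5.89 (3.22 to 9.89) against 3.01 (2.29 to 3.88). The rest of each arm includes gene spans. Sequence within 3000 bp outside genes held 168 CAP-D3 peaks per Mb (156 to 180) on 3R, 127 (116 to 139) on 3L and 135 on 2L. It held 138 on 2R, 151 without the first 5.7 Mb, and 26.3 (20.4 to 33.4) on X. Against that sequence the far density was higher on 3R and 3L, with intervals apart, and lower only on the whole of 2R.

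**Figure D2:**
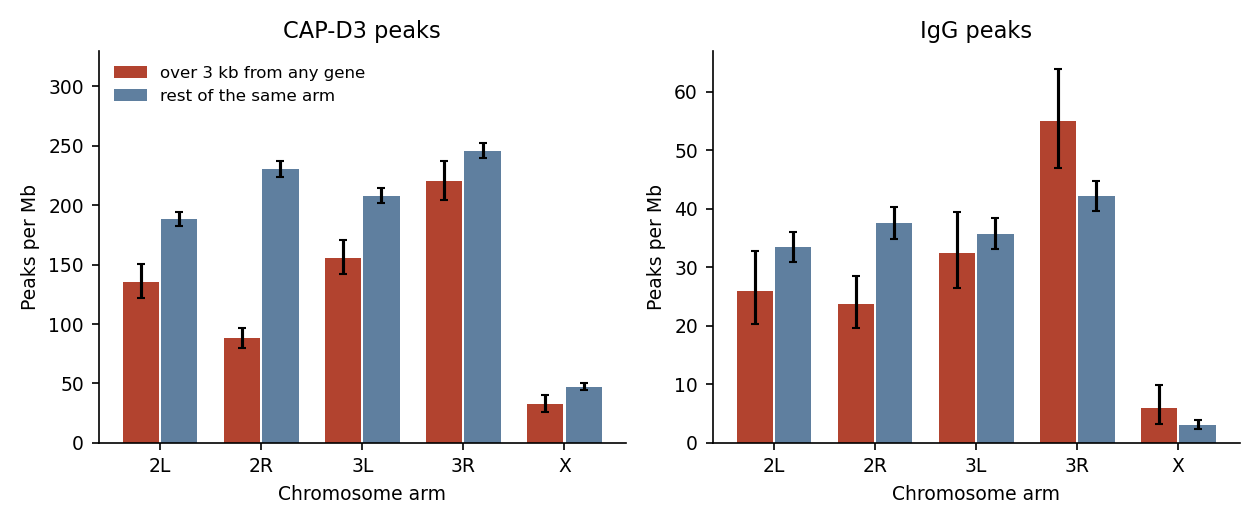
Peaks per Mb (y axis) on each chromosome arm (x axis) in sequence over 3 kb from any gene (red) and in the remaining sequence of the same arm (blue), for CAP-D3 (left panel) and IgG (right panel), with 95% Poisson intervals. The red CAP-D3 bars were lower on all 5 arms, from 220 against 246 per Mb on 3R to 87.9 against 230 per Mb on 2R. On 3R and X the red IgG bar was the higher one. The blue bars include gene spans.

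Far peaks scored like other CAP-D3 peaks. The score is −log10 of the probability that MACS2 gave the peak, a rank of confidence within this list that depends on depth. Far peaks had a median score of 9.25 (95% interval 8.99 to 9.53, quartiles 6.90 and 12.4), against 9.16 (9.09 to 9.23) for the rest, and 888 of the 2035 (43.6%, 41.5 to 45.8%) scored 10 or more, against 8110 (41.7%, 41.0 to 42.4%) of the rest. Over all CAP-D3 peaks of the same parts that share was 41.9%. At the top of the list, 65 far peaks (3.19%, 2.51 to 4.05%) scored 20 or more, against 408 (2.10%, 1.90 to 2.31%) of the rest, and the share over all peaks was 2.20%. Among peaks outside genes but within 3000 bp of one, 66 (2.95%) did. Without the first 5.7 Mb of 2R, 58 of 1937 far peaks (2.99%) reached that score.

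The far peaks were narrow. Their median length was 306 bp (quartiles 270 and 395 bp), close to the 307 bp of peaks within 3000 bp of a gene, and peaks inside genes had a median of 330 bp. Only 11 far peaks (0.541%, 0.302 to 0.965%) were 800 bp or longer, against 721 (3.70%, 3.45 to 3.98%) of the rest, where 3.40% of all peaks of the same parts were. The count within 3000 bp of a gene was also low, at 14 (0.626%), and 707 of the long peaks (4.10%) lay inside genes. Of the 11 long far peaks, 6 lay in the first 5.7 Mb of 2R. The longest, MACS peak 4252, spanned 1189 bp at 2R:4297164-4298352 with a score of 6.85. It lay between IntS3, a subunit of the Integrator complex, and Gprk1, a G protein-coupled receptor kinase. Outside that region the longest was MACS peak 9533, 1163 bp at 3L:1123096-1124258 between bab1 and bab2, with a score of 9.10. One of the long peaks also scored over 20, MACS peak 13366, 810 bp at 3L:21452926-21453735, 5.20 kb from a gene in the gap between Syx7 and croc, a forkhead gene of the embryonic head.

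The neighbouring CAP-D3 peak lay farther away than among other peaks. The median space to the next peak was 1439 bp for far peaks, against 953 bp for the rest. A neighbour within 1000 bp was found for 807 far peaks (39.7%, 37.6 to 41.8%), against 10030 (51.5%, 50.8 to 52.2%) of the rest, and 50.4% of all peaks. Peaks outside genes but within 3000 bp of one were closer to the far peaks, with a median space of 1224 bp. Of these, 929 (41.5%, 39.5 to 43.6%) had a neighbour within 1000 bp, an interval that overlapped that of the far peaks.

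Far peaks coincided with IgG peaks somewhat more often than the rest over all arms, but not on each of them. At least 1 bp of an IgG peak lay under 338 far peaks (16.6%, 15.1 to 18.3%), against 2579 (13.3%, 12.8 to 13.7%) of the rest, where the share over all CAP-D3 peaks was 13.6%. IgG peaks of score 10 or more lay under 78 far peaks (3.83%), against 499 (2.56%) of the rest, and under 2.68% of all peaks. In the first 5.7 Mb of 2R the share was high in both classes, 29 of 98 far peaks (29.6%, 21.5 to 39.3%) against 34 of 113 others (30.1%, 22.4 to 39.1%), and without that region it was 16.0% (14.4 to 17.7%), against 13.2% in the rest. Peaks are not replicates of the experiment, so these shares are descriptions of the 2 lists. By arm, the shares were 81 of 427 far peaks (15.5 to 23.0%) against 12.9% of the rest on 2R, 18.5% against 13.7% on 3R, 14.3% against 13.8% on 3L and 13.5% against 14.4% on 2L, and those of X are given further on. By distance, the share was 16.2% at 3 to 5 kb from a gene, 15.1% at 5 to 10 kb and 19.5% (101 of 517) beyond 10 kb. These shares include the first 5.7 Mb of 2R, which weighs more in the farther bands. Without it 700 of 715 peaks remain at 3 to 5 kb and 791 of 803 at 5 to 10 kb. At 10 to 20 kb 366 of 396 remain, and beyond 20 kb 80 of 121. The shares by distance were not taken without that region.

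The shares lay farthest apart among the weakest peaks. Of far peaks scoring under 5, 30 of 171 (17.5%, 12.6 to 23.9%) overlapped an IgG peak, against 121 of 1618 (7.48%, 6.29 to 8.86%) of the rest. At scores of 5 to 10 the shares were 15.5% (13.3 to 17.9%) and 11.7% (11.1 to 12.4%). At scores of 10 to 15 they were 18.2% (15.4 to 21.4%) and 15.5% (14.6 to 16.4%), at 15 to 20 they were 15.1% (10.6 to 20.9%) and 18.3% (16.5 to 20.2%), and these intervals overlapped. At 20 or more, 13 of 65 far peaks (20%, 12.1 to 31.3%) overlapped an IgG peak, against 19.1% (15.6 to 23.2%) of the rest. Peaks outside genes but within 3000 bp of one overlapped an IgG peak in 16 of 187 cases under a score of 5 (8.56%, 5.34 to 13.4%). That interval overlapped the one of the far peaks under 5. Read from the control list, 336 of the 470 far IgG peaks (71.5%, 67.2 to 75.4%) overlapped a CAP-D3 peak, against 2597 of 3218 other IgG peaks (80.7%, 79.3 to 82.0%).

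**Figure D3:**
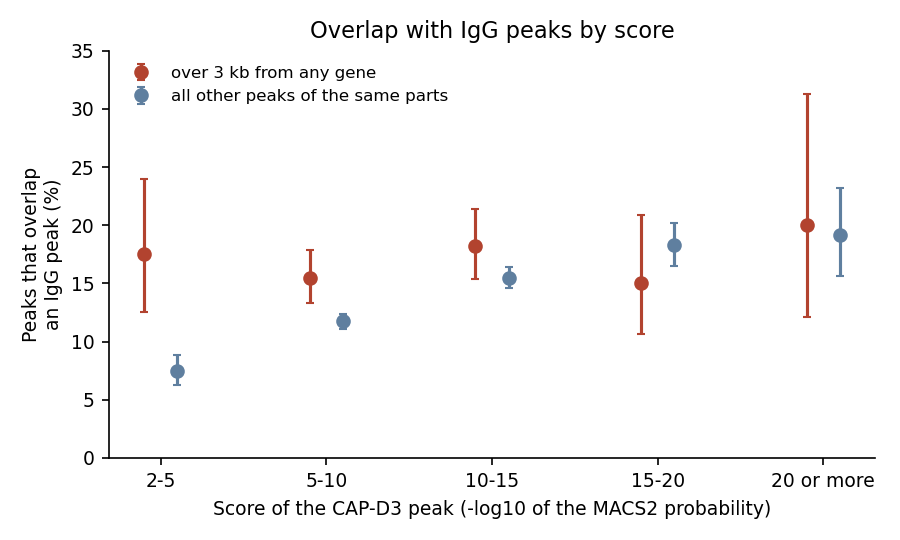
Percentage of peaks in the CAP-D3 list with at least 1 bp in an IgG peak (y axis) in classes of CAP-D3 score (x axis), for peaks over 3 kb from any gene (red) and all other peaks of the same parts (blue), with 95% Wilson intervals. Under a score of 5 the shares were 17.5% and 7.48%, and at 20 or more they were 20% and 19.1%.

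The far peaks were gathered in part of the gaps that could hold them. There were 1462 gaps wider than 6000 bp, the smallest in which a midpoint can be over 3000 bp from the genes on both sides, counting 4 stretches between the start of an arm and its first gene. Of these, 724 (49.5%) held at least 1 far peak and 738 held none, 286 held exactly 1 and 175 held 2. The 112 gaps with 5 or more far peaks contained 896 of them (44.0%), and 26 gaps with 10 or more contained 336 (16.5%). Gaps with a far peak had a median width of 16.2 kb, against 9.15 kb for gaps without. A far peak was found in 21.9% (18.7 to 25.5%) of gaps of 6 to 10 kb, 61.7% of those of 10 to 20 kb, 75.6% of those of 20 to 40 kb and 78.3% of the 69 gaps of 40 kb or more. Density over the far sequence of these gaps was 155, 165, 144 and 65.3 per Mb in the same order, so the widest gaps were the most often occupied and the least densely. Of these 69 widest gaps, 29 lay in the first 5.7 Mb of 2R and 9 on X.

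**Figure D4:**
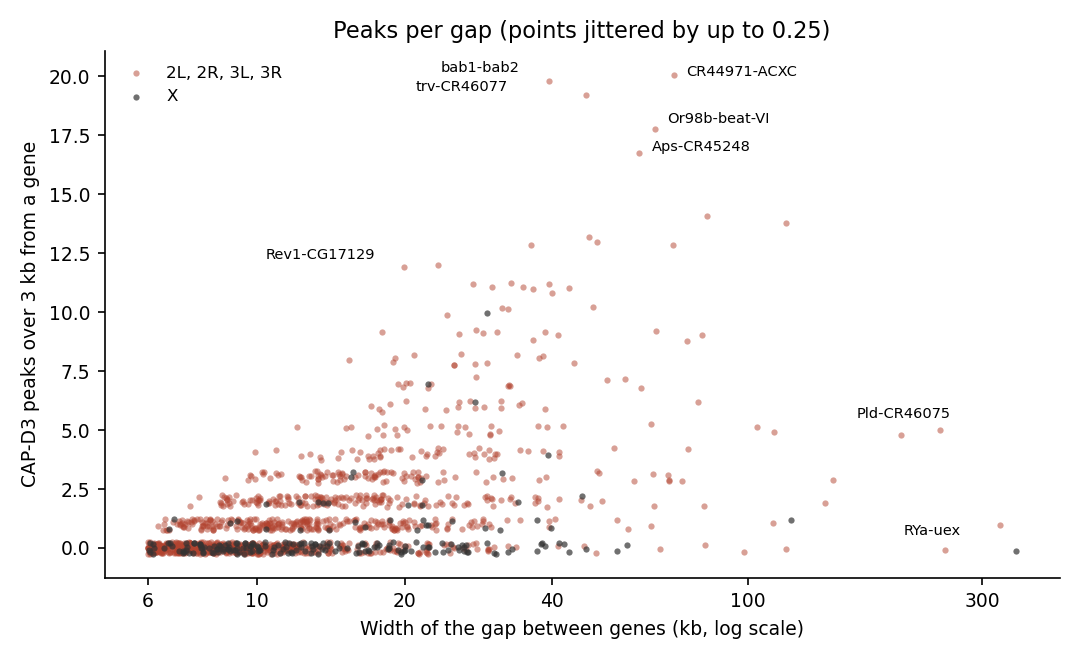
Number of far CAP-D3 peaks (y axis, jittered by up to 0.25) in each of the 1462 gaps between genes by width of the gap (x axis, kb, log scale), with X in dark grey and the other arms in red. The gap between bab1 and bab2 held 20 far peaks in 39.3 kb and that between Rev1 and CG17129 held 12 in 19.9 kb, while the 252.5 kb between RYa and uex held none.

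The gap between bab1 and bab2 on 3L tied for the most far peaks. These neighbouring genes encode BTB-domain transcription factors that pattern the leg, the ovary and abdominal pigmentation, and enhancers lie in the sequence they share. The gap of 39.3 kb held 20 far peaks, 12 of them scoring 10 or more, with a median score of 11.62. The strongest were MACS peak 9540 at 3L:1135172-1135435 (score 25.79), 5.13 kb from the nearer gene, and MACS peak 9525 at 3L:1107117-1107371 (score 22.94), 6.16 kb from the nearer gene. Neither overlapped an IgG peak, and 2 of the 20 did. Beyond bab2, in the gap to CG13912, MACS peak 9556 at 3L:1181382-1181869 scored 21.48.

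The 4 gaps next in number had wider spaces or weaker peaks. The 70.6 kb between lncRNA:CR44971 and ACXC, an adenylyl cyclase gene on 2L, also held 20 far peaks, with a median score of 9.19 and a highest score of 20.82 at MACS peak 2586 (2L:12899430-12899711), and 3 of them overlapped an IgG peak. The 46.9 kb between trv and lncRNA:CR46077 on 3R held 19, the highest at 15.03, and 7 overlapped an IgG peak, the most of the 5 gaps. On the same arm the 64.6 kb between Or98b, an odorant receptor gene, and beat-VI, of the beaten path family of neuronal immunoglobulin proteins, held 18 with a highest score of 14.4 and 4 overlaps. The 60.1 kb between Aps and lncRNA:CR45248 on 3L held 17 with a highest score of 19.34 and 3 overlaps.

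**Figure D5:**
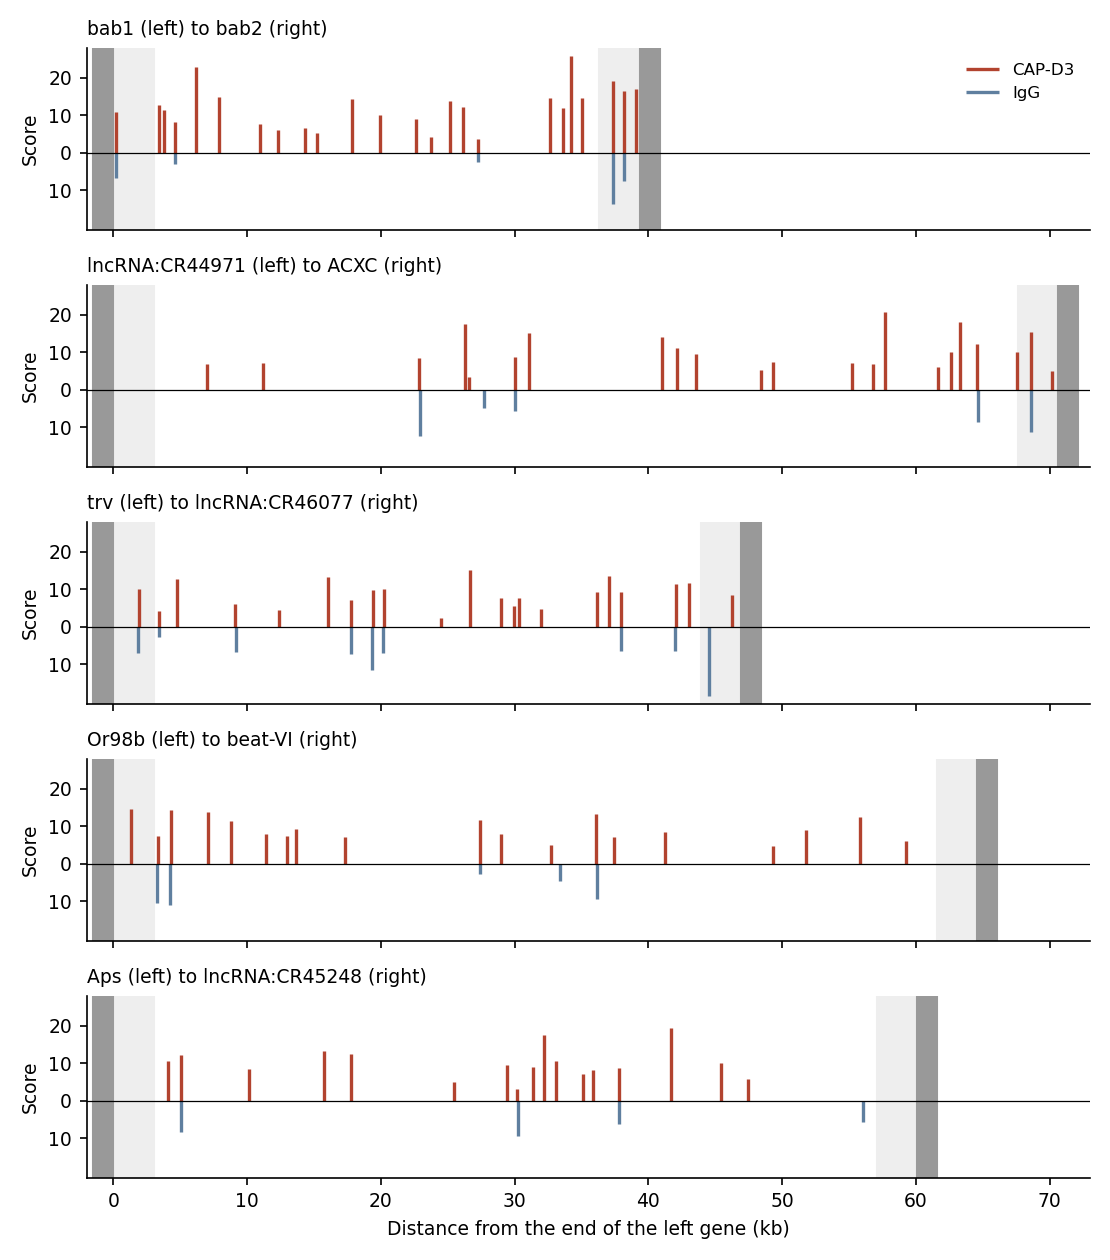
Peaks in the 5 gaps that held the most far CAP-D3 peaks, by distance from the end of the left gene (x axis, kb), with the CAP-D3 score upwards (red) and the IgG score downwards (blue). Dark grey blocks mark where the flanking genes begin and light grey the 3 kb next to them, whose peaks are drawn but not counted as far. The gap between bab1 and bab2 held 20 far peaks up to a score of 25.79, and that between trv and lncRNA:CR46077 held 19 with 7 IgG overlaps.

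Among the 40 gaps with the most far peaks, the densest was shorter. Between Rev1, a translesion DNA polymerase gene, and CG17129 on 3L, 12 far peaks stood in 19.9 kb, or 8.63 per 10 kb of far sequence, against 6.0 per 10 kb between bab1 and bab2. None of the 12 overlapped an IgG peak and 7 scored 10 or more. This gap and the next densest, between lncRNA:CR44421 and Ote on 2R with 7.49 per 10 kb, were singled out after their values were seen.

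The strongest far peak stood apart from any gene or other peak. MACS peak 21078 at X:54291-54611 scored 75.77, the fourth highest of the whole CAP-D3 list, and lay 68.0 kb to the left of the first annotated gene on X, lncRNA:CR40469. It overlapped an IgG peak of score 46.57, the highest score in the IgG list, and the nearest other CAP-D3 peak was 542356 bp away.

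Of the other 9 far peaks in the top 10 by score, 8 had no IgG peak under them. MACS peak 4228 at 2R:3306113-3306374 scored 45.35, 28.6 kb from the nearest gene in the gap between dpr21, of the Dpr family of neuronal surface proteins, and the pseudogene CR41243. MACS peak 4158 at 2R:1036960-1037218 scored 34.62 between CG40498 and lncRNA:CR41257, MACS peak 4141 at 2R:870364-870656 scored 34.52 between CG46302 and CG40498, and MACS peak 4250 at 2R:4251430-4251745 scored 30.34 between IntS3 and Gprk1. With MACS peak 4303 at 2R:5074079-5074418, which scored 30.16 between the troponin C gene TpnC41C and CR43360, these belonged to the centromere side of 2R. So did the only other member of the top 10 over an IgG peak, MACS peak 4284 at 2R:4876686-4877105 between CG14464 and CG44102, which scored 30.16 over an IgG score of 16.89. The first 5.7 Mb of 2R thus gave 6 of the 10 strongest far peaks from 98 of the 2035.

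Outside that region and X, 3 peaks reached the top 10. MACS peak 481 at 2L:1456711-1456971 scored 36.37, 13.0 kb from the nearest gene in a gap of 48.5 kb between CG43402 and CG31928 that held 10 far peaks. MACS peak 14842 at 3R:6522282-6522555 scored 34.94 between a methionine tRNA gene, tRNA:Met-CAT-1-5, and CG15185, and MACS peak 14839 in the same gap scored 24.40. MACS peak 629 at 2L:2121610-2121911 scored 30.16 between dpr3, another Dpr gene, and CG4259. None of these 4 peaks overlapped an IgG peak.

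Of the 65 far peaks of score 20 or more, 9 (13.8%, 7.46 to 24.3%) had a gene of the developmental transcription factor list beside them, against 208 of the 1970 weaker far peaks (10.6%, 9.28 to 12.0%), and 32 (49.2%) had a long noncoding RNA gene beside them, against 983 (49.9%). The highest of the 9 was MACS peak 5800 at 2R:10969253-10969513 (score 26.53), 8.57 kb from the nearest gene in the gap between lncRNA:CR45228 and luna, a Krüppel-like factor gene. MACS peak 2530 (25.56) stood between Ref2 and the POU-domain gene pdm2, and MACS peak 5963 (24.17) between en and tou. MACS peak 20062 (23.20) stood beside fkh, the forkhead gene of the embryonic gut and salivary gland, MACS peak 13175 (21.48) beside knrl, a nuclear receptor gene related to knirps, and MACS peak 20460 (20.56, over an IgG score of 16.38) beside dmrt99B. The gap between CG42710 and SoxN, a Sox gene of the embryonic nervous system, held a pair, MACS peak 1814 (20.23) and MACS peak 1809 (20), and MACS peak 13366 beside croc completes the 9. The POU-domain gene pdm3, which is not on the list, had MACS peak 5080 beside it (25.05, over an IgG score of 16.41).

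Genes of the cell adhesion list flanked 10 of the 65 (15.4%, 8.58 to 26.1%), against 119 of the 1970 weaker far peaks (6.04%, 5.07 to 7.18%). The 10 include 4 peaks of 1 gap and are not independent. The gap of 47.5 kb between lncRNA:CR43846 and klg, an immunoglobulin adhesion gene, held 4 peaks of score 20 or more, at 22.35, 20.89 (over an IgG score of 6.16), 20.42 and 20.20, the most of any gap. MACS peak 15834 (24.07) stood beside side-VI, MACS peak 11144 (20.47) beside Dscam2, MACS peak 10709 (24.35, over an IgG score of 13.4) beside Con, which encodes Connectin, and MACS peak 18858 (22.82, over an IgG score of 14.42) beside beat-IV. MACS peak 500 (26.05) lay between the odorant receptor gene Or22b and haf, and MACS peak 20847 (22.43) lay between ppk24, of the pickpocket channel family, and pHCl-2. Other pairs of strong peaks bordered different classes of gene. MACS peak 17970 (21.92) and MACS peak 17971 (20.98) lay between MFS9 and MtnE, a metallothionein gene. MACS peak 9837 (26.10, over an IgG score of 14.49) lay between the cuticle gene Cpr62Bc and CNMa, a neuropeptide gene, and MACS peak 5068 (26.06) stood 7.14 kb from the nearest gene in the gap between lncRNA:CR44280 and mir-280.

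Genes of every list had far peaks beside them. Of the 2445 genes next to a gap wide enough to hold a far peak, 1288 (52.7%) had one in such a gap. Among developmental transcription factor genes the count was 58 of 97 (59.8%), among secreted signal genes 12 of 18 (66.7%) and among cell adhesion genes of the dpr, DIP, beat, side, robo and related families 37 of 61 (60.7%). It was 28 of 56 (50%) for chemoreceptor and odorant binding genes, 12 of 22 (54.5%) for neurotransmitter and peptide receptor genes and 8 of 15 (53.3%) for cuticle genes. Long noncoding RNA genes gave 359 of 634 (56.6%), protein-coding genes 878 of 1706 (51.5%), tRNA genes 17 of 36 (47.2%) and miRNA genes 4 of 5. The gaps differ in width between the lists, with a median of 13.4 kb beside the transcription factor genes, 12.5 kb beside the adhesion genes and 11.8 kb over all gaps, and the lists were not tested against each other.

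Far peaks beside developmental transcription factor genes numbered 217, or 157 per Mb of far sequence in those gaps. All far sequence held 126 per Mb, and 148 per Mb without the first 5.7 Mb of 2R. The list leaves out bab1 and bab2, whose gap is described above. Its largest sets were 13 between en, the posterior compartment selector, and tou, 13 between mIF2 and fkh, 13 between vvl, a POU-domain gene of the trachea and brain, and lncRNA:CR45115, and 11 between CG42710 and SoxN. The 3 sets of 13 differed in strength, with median scores of 10.66 beside en, 10.52 beside fkh and 7.65 beside vvl, where no far peak overlapped an IgG peak. Sets of 8 stood beside croc, beside the homeobox genes lbe and ems, and beside the gap gene kni. Among genes of the wing disc, 5 far peaks lay beside ap, the dorsal selector, 5 beside salm and 3 beside salr, which act in vein placement, 6 beside mirr, 3 beside Dll and 2 between ara and caup.

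Secreted signal genes, of which 18 bordered such a gap, had 34 far peaks beside them, or 182 per Mb on the same measure. The gap between vn, which encodes the EGF receptor ligand Vein, and CG5568 held 9 in 25.8 kb, with a highest score of 17.8, and 3 overlapped an IgG peak. The Notch ligand gene Ser had 6 beside it, with a highest score of 15.48. Between the FGF genes pyr and ths there were 4, on the other side of ths another 4, and beside jeb, the Alk ligand gene, 4. The 30.0 kb between Wnt4 and wg held 2, the gap on the other side of wg held 1, and the gap between hh and unk held 1 with a score of 3.64.

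Cell adhesion genes were flanked by 129 far peaks, at 85.5 per Mb over all their gaps. That figure includes wide gaps beside DIP-lambda and dpr21 on the sparse centromere side of 2R. To the right of these genes, gaps of 149 kb and 144 kb held 3 and 2 far peaks. To their left, gaps of 327 kb and 98.4 kb held 1 and 0. No density was taken without these gaps, so the figure does not show that adhesion genes elsewhere had few far peaks. Elsewhere the gap between dpr5 and dpr4 held 11 in 27.5 kb, with 3 over an IgG peak, and 7 each stood beside Dscam2 and between robo3, an axon guidance receptor gene, and a5. Toll-6 had 5 in a gap of 63.5 kb. Chemoreceptor and odorant binding genes had 100 far peaks beside them, or 173 per Mb, and cuticle genes had 12, or 218 per Mb. No interval was taken for the densities of the lists, and those that rest on few peaks, such as these 12, are loosely set. Among the 100 were 18 between Or98b and beat-VI, which are also counted among the 129 of the adhesion list. A gap that borders genes of different lists counts in each. A further 10 lay between CG45263 and Or85b and 9 between Obp47a, an odorant binding protein gene, and Spn47C. Neurotransmitter and peptide receptor genes had 32 far peaks, or 136 per Mb. There were 6 each beside Octbeta2R, an octopamine receptor gene, and Dop2R, a dopamine receptor gene, and 3 between nAChRalpha2 and nAChRbeta2.

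Among small RNA genes, the gap between lncRNA:CR45436 and mir-219 and the gap between mir-957 and CG11404, both on 3L, held 11 far peaks each. Beside mir-280 there were 7 on one side and 1 on the other, and beside mir-137 there were 4. Of the 46 far peaks beside tRNA genes (174 per Mb), 11 lay between tRNA:Ile-TAT-1-2 and CG13898, where the highest, MACS peak 9433, scored 21.88.

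The widest gaps included regions known as piRNA clusters. The gap of 245.8 kb on 2R between Pld, the phospholipase D gene, and lncRNA:CR46075 includes the cluster at 42AB and held 5 far peaks with a highest score of 14.61, of which 1 scored 10 or more and 2 overlapped an IgG peak. The gap of 113 kb on 2L between CG10651 and lncRNA:CR40341, at cluster 38C, also held 5, of which 3 scored 10 or more, up to 17.56, and none overlapped an IgG peak. The gap next to lncRNA:flam on X, the gene of the flamenco cluster of the ovarian soma, held none in the 206 kb of it that was counted. That gap begins where lncRNA:flam ends, and the span of lncRNA:flam itself was counted as gene. How many reads mapped to such repeats is unknown from the peak lists, so a lack of peaks there says only that none was called. On 3L, 3 far peaks of up to 11.74 lay in the 73.5 kb between lncRNA:CR46353 and rpr, the cell death gene reaper.

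The 3 peaks farthest from any gene lay on the centromere side of 2R and scored low to middling. MACS peak 4120 at 2R:97560-97950 was 229 kb from DIP-lambda, with a score of 4.73 over an IgG score of 7.03. MACS peaks 4207 and 4208, in the gap of 205 kb between MFS17 and CG41378, were 101 kb and 90.6 kb from a gene and scored 6.90 and 10.92.

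The X chromosome held few far peaks, with a median score above that of the other peaks of X but overlapping intervals. Its 77 far peaks had a median score of 9.25 (95% interval 7.94 to 10.03), against 7.68 (7.45 to 8.03) for the other peaks of X. They overlapped an IgG peak in 12 cases (15.6%, 9.15 to 25.3%), against 49 of 928 (5.28%, 4.02 to 6.91%) of the rest of X. Of 201 gaps wide enough on X, 37 held a far peak. The 2 classes were spread differently along X, where 38 of the 77 far peaks (49.4%) lay at 19 Mb or above, towards the centromere, against 193 of 928 others (20.8%). There the far peaks had a median score of 9.79 (8.64 to 11.47) and 7 IgG overlaps, against 8.73 (7.90 to 9.17) and 20 for the others. Below 19 Mb the 39 far peaks had a median of 8.05 (7.15 to 9.80) and 5 overlaps, against 7.46 (7.19 to 7.75) and 29 for the 735 others. Both classes thus had the higher median near the centromere, and in each part the intervals of the classes overlapped. The fullest gaps on X were those between CG1504 and the pseudogene CR46072 with 10 far peaks, between the innexin gene Inx6 and lncRNA:CR45504 with 7, all of score 10 or more, and between Dop2R and lncRNA:CR45628 with 6.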

How the data were processed

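The files used were 2 lists of ChIP-seq peaks, 1 for CAP-D3 and 1 for IgG. Each was deposited as positions with a score, which the authors took from MACS2 against input and which is −log10 of a p-value or q-value; the file does not say which. The submitters' processing notes name CASAVA 1.4, Trim Galore 0.3.7, cutadapt 1.8, FastQC 0.11.3, Bowtie 1.0.0 and MACS2 2.0.9. The genome build is not given in the sources used here. Peak positions reach past the ends of the arms of earlier releases and fit Release 6, so gene spans came from the RefSeq table of Release 6 plus ISO1 MT (17569 genes on 5 arms). One gene, SteXh:CG42398, was left out because its position was out of order.

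Distances ran from the peak midpoint to the nearest gene span, and overlap with IgG meant at least 1 bp. Shares carry 95% Wilson intervals, densities exact Poisson intervals and medians order-statistic intervals, for counting error only. Read depth is unknown from peak lists. Distance and overlap functions were tested on simulated data (Python 3.11.15, pandas 2.3.3, scipy 1.17.1). The genes named flank the 10 highest-scoring far peaks, those scoring 20 or more, the 5 gaps with the most far peaks or the 3 farthest peaks, or belong to a gene list. Those beside the 3000 bp limit, in the widest gaps, in the fullest gaps on X and in the densest gaps were added after their values were seen. The members and lists were chosen with earlier results of these data known. Motifs and base composition of the peaks were not analysed here.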

Additional observations from a re-analysis of the deposited data

How the results depend on the processing

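The count of far peaks was 2035. It was 1320 at over 5000 bp, 888 at scores of 10 or more and 65 at scores of 20 or more. It stayed within 1.5 times of 2035 for the other distance, for whole peaks, for protein-coding genes alone (2792), for whole arms and without the first 5.7 Mb of 2R (1937), an alternative chosen after seeing the data. The share of far peaks over an IgG peak was 16.6%. It was 20% for CAP-D3 peaks of score 20 or more and 3.83% for IgG peaks of score 10 or more, against 19.1% and 2.56% of the rest. The density of 126 far peaks per Mb was 55.1 at scores of 10 or more, 134 with protein-coding genes alone, 103 on whole arms and 148 without the first 5.7 Mb of 2R, against 78.1, 189, 179 and 191 per Mb of the rest. In each of these the far density was the lower one, but the rest includes gene spans. Sequence within 3000 bp outside genes held 126 per Mb, and 55.4 at scores of 10 or more, close to the far densities. Without the first 5.7 Mb of 2R it held 128 per Mb, below the far density. The median score differed by less than its interval under every alternative run, at 9.22 to 9.28.

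No paired analysis was possible because a single peak list stands for each antibody, so leaving out a replicate was not possible either. Motifs and base composition were not run. With no reads or depth, a gap without a peak says only that none was called, and peaks in repeats near the centromere depend on how reads with several matches were treated, which the sources used here do not give.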
